A study of Mus musculus with 4 samples.

Results

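Fatty acid oxidation and the targets of the peroxisome proliferator-activated receptors (PPARs) were followed across 4 stages of a stepwise culture of primary mouse hepatocytes. The set held 37 genes chosen by symbol, out of 30138 gene entries in the count table, and all 37 were found there. Of these, 34 reached at least 1 CPM (read counts relative to library size) at 1 or more stages and were measured. Cpt1b, Acot3 and Fabp1 did not. The symbols fall by role into the carnitine shuttle, the acyl-CoA dehydrogenases with electron transfer, the later steps of mitochondrial beta-oxidation, peroxisomal oxidation, receptors with a coactivator, acyl-CoA thioesterases and other PPAR targets.

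All libraries came from liver hepatocytes that had been expanded in a high-glucose DMEM containing 10% FBS. S0 was the serum-free culture, with 2% knockout serum and with bFGF and EGF at 20 ng/ml each. S1 was taken after 5-azacytidine, an inhibitor of DNA methylation (48 h, labelled 5 mM), and then trichostatin A, an inhibitor of histone deacetylases (24 h, 100 nM). S2 was taken after ITS supplement with retinoic acid (7 days, labelled 2 mM). The labels give S1 and S2 the same knockout serum, bFGF and EGF as S0. S3 was taken after nicotinamide (7 days, 10 mM) in medium free of FGF and EGF. Both millimolar doses are those of the labels. The protocol aims at insulin-producing cells, and the series compares messenger and long non-coding RNAs between its stages. Each stage was 1 library, so no difference below has a replicate check and no p-value is given.

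In liver, long-chain fatty acids are joined to coenzyme A, carried into mitochondria as carnitine esters and shortened stepwise, with electrons passed to the respiratory chain. Peroxisomes shorten chains that mitochondria handle poorly. PPAR-alpha, paired with a retinoid X receptor, is the liver's main regulator of these genes in fasting, and it binds a repeated hexamer in their promoters or introns.

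Reads in genes ranged from 22944047 in S2 to 27602967 in S0. A floor of 3 reads, which stood in for 0 reads in ratios, was 0.103 CPM in S1 to 0.137 CPM in S2. Of 13 hepatocyte markers, 9 were measured. Tat had 0 reads at all stages, G6pc had 0 reads in S1, and Cyp2e1 had at most 2 reads, while summed hepatocyte markers stood at 3721 CPM at S0, 4113 at S1, 12180 at S2 and 6450 at S3. Apob and Alb held most of that sum. Apob had 3151 CPM at S0, 1439 at S1, 3690 at S2 and 2355 at S3. Alb had 233.8 CPM at S0, 1724 at S1, 7171 at S2 and 3569 at S3. Macrophage and Kupffer cell markers, all 15 of them measured, summed to 14510 CPM at S0, 3359 at S1, 748.5 at S2 and 749.4 at S3. Lyz2 alone made up 8936 CPM of that sum at S0, 2429 at S1, 544.9 at S2 and 519.8 at S3. Fibroblast and stellate cell markers (11 of 11 measured) summed to 5708 CPM at S0, 1591 at S1, 1713 at S2 and 3210 at S3. Acta2 alone, a marker of contractile cells, made up 3895 CPM of that sum at S0, 534 at S1, 212 at S2 and 339.9 at S3. Most of the other markers on that list went the other way, since 6 of the 11 were called higher and 3 lower in S3 against S0, with a median log2 ratio of 1.82. Of all genes, 9.2% were called higher and 10.5% lower there. Adipocyte markers never summed above 0.344 CPM, and Adipoq and Lep had 0 reads throughout. In such bulk RNA, fewer cells of a type and less RNA per cell cannot be told apart.

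Promoters are shown for the genes on which the results below turn: 3 neighbouring thioesterase genes that differed from each other, the lipid droplet gene Plin2, Fabp1, and the stretch between the start sites of Hadha and Hadhb. Each is the 250 bases upstream of the start site in RefSeq (mouse build GRCm38.p6), given on the gene's strand. The PPAR element searched was the hexamer AGGTCA, then any 1 base, then AGGTCA again, on either strand. Capitals mark single AGGTCA hexamers on either strand and the best match to the whole element where it had at most 2 mismatches, and both can overlap. The mismatch limit was chosen after the sequences were seen.
The thioesterase genes lie on the plus strand of chromosome 12, Acot2 at chr12:83987611-83987860, Acot1 at chr12:84009252-84009501 and Acot4 at chr12:84038129-84038378.
Acot2: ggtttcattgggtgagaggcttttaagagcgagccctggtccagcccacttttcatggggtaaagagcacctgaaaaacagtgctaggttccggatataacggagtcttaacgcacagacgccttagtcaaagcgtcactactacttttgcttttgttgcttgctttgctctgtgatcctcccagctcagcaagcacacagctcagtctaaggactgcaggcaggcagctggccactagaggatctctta
Acot1: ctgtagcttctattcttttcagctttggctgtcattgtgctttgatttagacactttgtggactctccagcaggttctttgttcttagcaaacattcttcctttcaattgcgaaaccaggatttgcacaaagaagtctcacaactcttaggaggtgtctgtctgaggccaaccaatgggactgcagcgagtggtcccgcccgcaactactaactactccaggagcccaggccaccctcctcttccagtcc
Acot4: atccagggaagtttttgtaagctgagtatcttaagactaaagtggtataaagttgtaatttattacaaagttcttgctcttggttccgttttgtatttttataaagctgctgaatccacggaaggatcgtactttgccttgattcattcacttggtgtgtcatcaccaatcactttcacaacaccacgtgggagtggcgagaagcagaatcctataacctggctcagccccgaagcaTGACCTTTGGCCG
The lipid genes are Fabp1 at chr6:71199629-71199878 on the plus strand and Plin2 at chr4:86670060-86670309 on the minus strand.
Fabp1: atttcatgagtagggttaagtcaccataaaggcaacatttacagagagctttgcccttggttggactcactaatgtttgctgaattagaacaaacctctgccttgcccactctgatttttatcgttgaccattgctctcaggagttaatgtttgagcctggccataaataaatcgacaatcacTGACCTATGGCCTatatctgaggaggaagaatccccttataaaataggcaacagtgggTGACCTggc
Plin2: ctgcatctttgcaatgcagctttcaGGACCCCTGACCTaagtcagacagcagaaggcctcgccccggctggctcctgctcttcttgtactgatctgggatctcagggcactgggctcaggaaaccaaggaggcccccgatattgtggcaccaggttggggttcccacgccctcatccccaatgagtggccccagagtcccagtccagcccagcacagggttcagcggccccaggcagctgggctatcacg
Hadhb, at chr5:30155003-30155252 on the plus strand, starts 272 bases from Hadha, which runs the other way.
Hadhb: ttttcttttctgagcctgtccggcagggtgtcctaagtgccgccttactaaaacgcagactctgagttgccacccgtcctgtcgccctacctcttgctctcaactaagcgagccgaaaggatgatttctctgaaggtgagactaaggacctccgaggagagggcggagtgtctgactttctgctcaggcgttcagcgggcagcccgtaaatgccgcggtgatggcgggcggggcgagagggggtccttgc

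RefSeq held 39 promoter windows for 34 of the 37 genes, each reaching from 250 bases before to 50 bases after the start. None held the exact PPAR element, against 0.0396% of all 32851 windows. With 1 mismatch allowed, only Fabp1 matched among these genes (1 of 39 windows, 2.56%, against 0.554% of all windows), at positions -67 to -55 from the start. With 2 allowed, 5 windows matched (12.8%, against 3.86%). Beside Fabp1 these were Plin2 (-225 to -213), Acot4 (-13 to -1), Etfa (-77 to -65) and Slc25a20 (6 to 18). The single hexamer was in 10 of 39 windows (25.6%, against 16.3%). A match describes the letters only, and binding was not measured.

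Levels are CPM after TMM scaling, which sets libraries to a common middle of their genes. A ratio is followed by its exact 95% counting interval, and a gene was called higher or lower when that whole interval lay beyond 2-fold. Few of the 34 measured genes passed. In S1 against S0, Ppara was higher and Acot2, Acot4 and Plin2 were lower, 4 genes in all. Of all 15222 genes tested, 25.6% were called, 12.6% higher and 13.1% lower. In S2 against S1, Acot2 and Acot4 were higher (2 genes, against 16.8% of all genes, 6.71% higher and 10.1% lower). In S3 against S2, Acot1 alone was higher (1 gene, against 4.83%, 3.69% higher and 1.14% lower). Across the whole protocol, S3 against S0, Ppara was higher and Plin2 lower (2 genes, against 19.7%, 9.2% higher and 10.5% lower). In S2 against S0, Ppara and Bdh1 were higher and Plin2 lower (3 genes, against 20.6%, 9.05% higher and 11.5% lower). Ppara reached 1 CPM only after S0, so its direction in the 3 comparisons with S0 was set by that limit. Acot4 was below 1 CPM in S1 alone, so its direction against S1 was set in the same way. At the 2-fold limit the called share of the measured genes was below that of all genes in each of the 5 comparisons. In S3 against S2 that rests on 1 gene, too few to set apart from 4.83%. At the 1.5-fold limit given below, the called share in S2 against S0 was close to that of all genes (33.2%). The comparisons share libraries, with S0 in 3 of them and S1 in 2.

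Smaller shifts were more common than calls. The median log2 ratio of the measured genes was 0.38 in S1 against S0, where all genes tested had -0.03, and 23 of the 34 ratios lay above 0. It was 0.11 in S2 against S1 (all genes 0.01), a sign that turned to -0.08 without TMM scaling. It was -0.21 in S3 against S2 (all genes 0.01), where 25 of the 34 ratios lay below 0. It was 0.18 in S3 against S0 and 0.39 in S2 against S0, where all genes had 0.05 each time. With a limit of 1.5-fold in place of 2-fold, 5 genes were higher and 6 lower in S1 against S0 (all genes 41.2%, 19.7% higher and 21.6% lower). S2 against S1 gave 5 higher and 4 lower (all genes 30.9%, 14.8% higher and 16.1% lower), and S3 against S2 gave 1 higher and 2 lower (10.7%, 7.29% higher and 3.36% lower). S3 against S0 gave 3 higher and 3 lower (31.8%, 16.4% higher and 15.4% lower), and S2 against S0 gave 8 higher and 3 lower (33.2%, 16.4% higher and 16.8% lower).

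**Figure D1:**
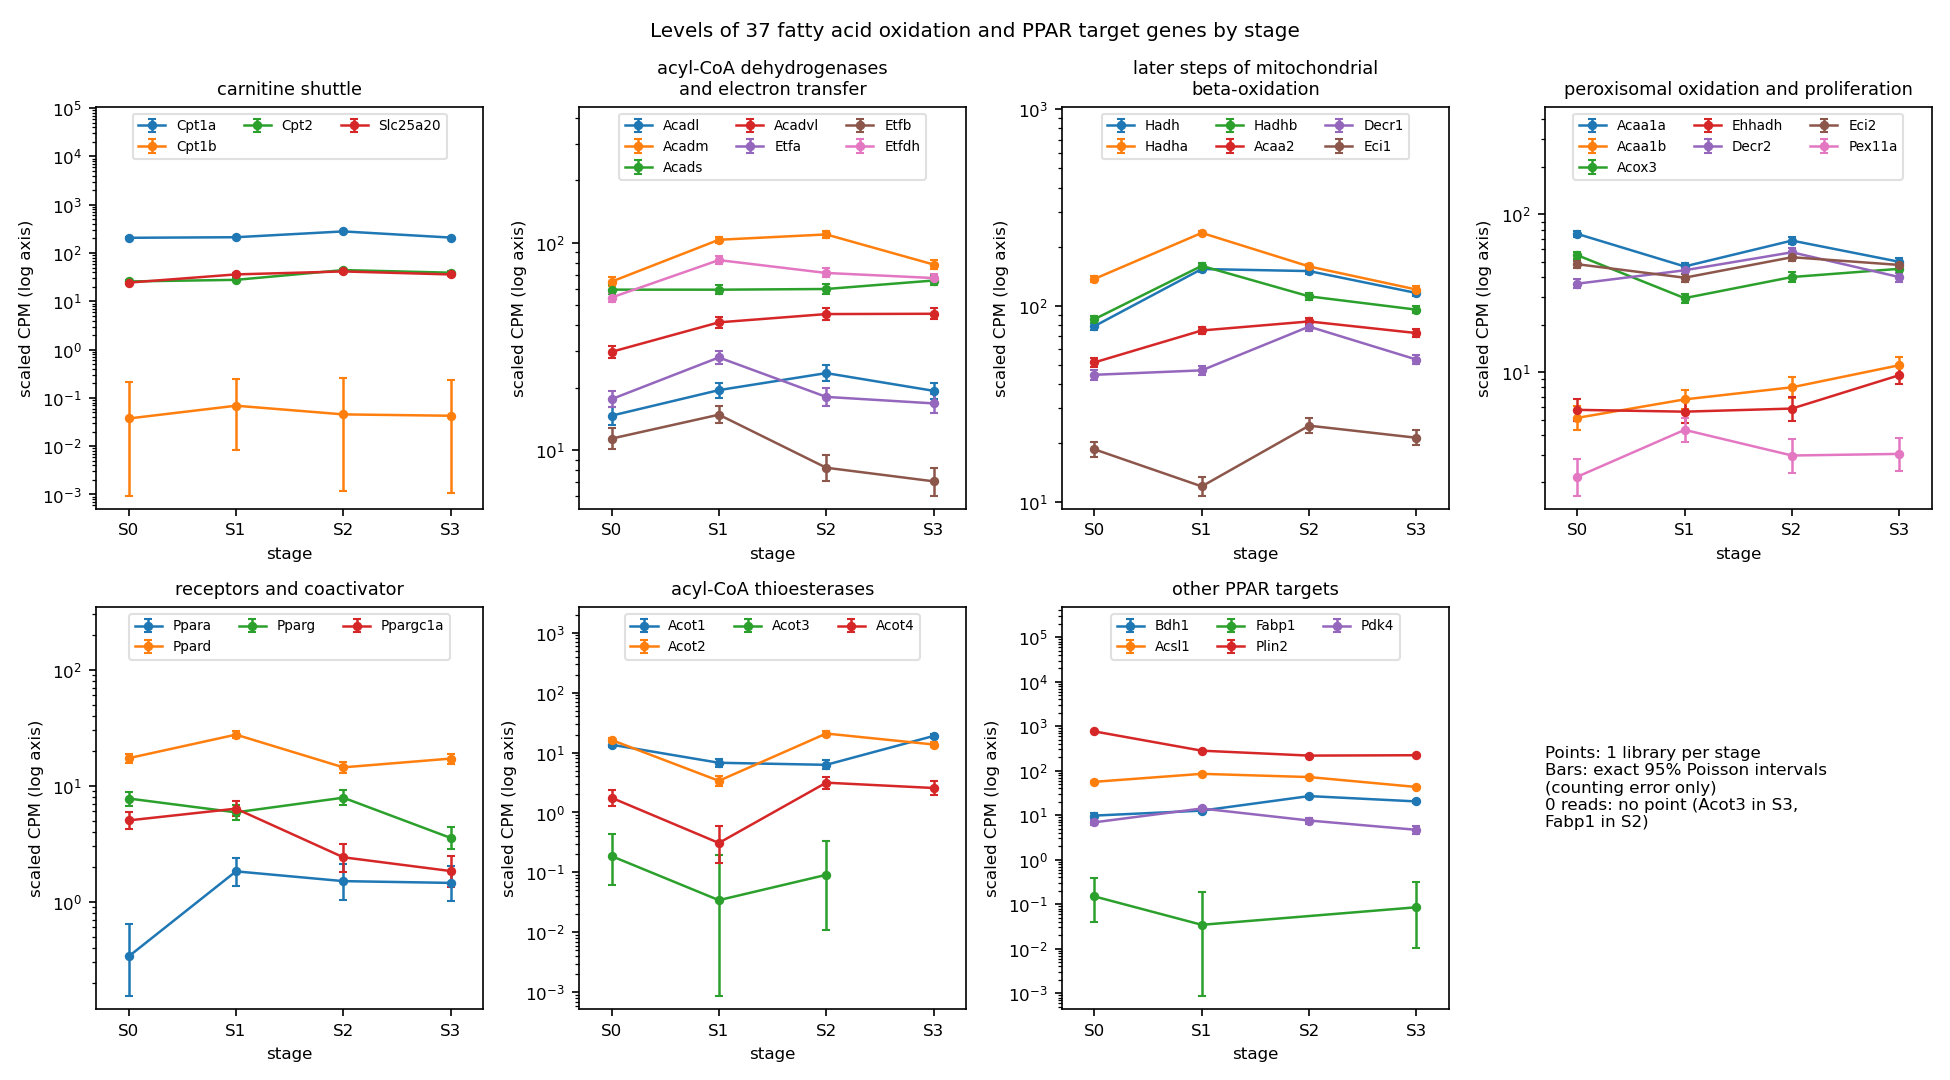
Level of each of the 37 genes (scaled CPM, log axis) at stages S0 to S3, in 7 panels by role. Each point is 1 library, bars are exact 95% Poisson intervals that cover counting error only, and Acot3 in S3 and Fabp1 in S2 have 0 reads and no point. Acot2 and Acot4 are lowest in S1, and Plin2 is highest in S0.

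**Figure D2:**
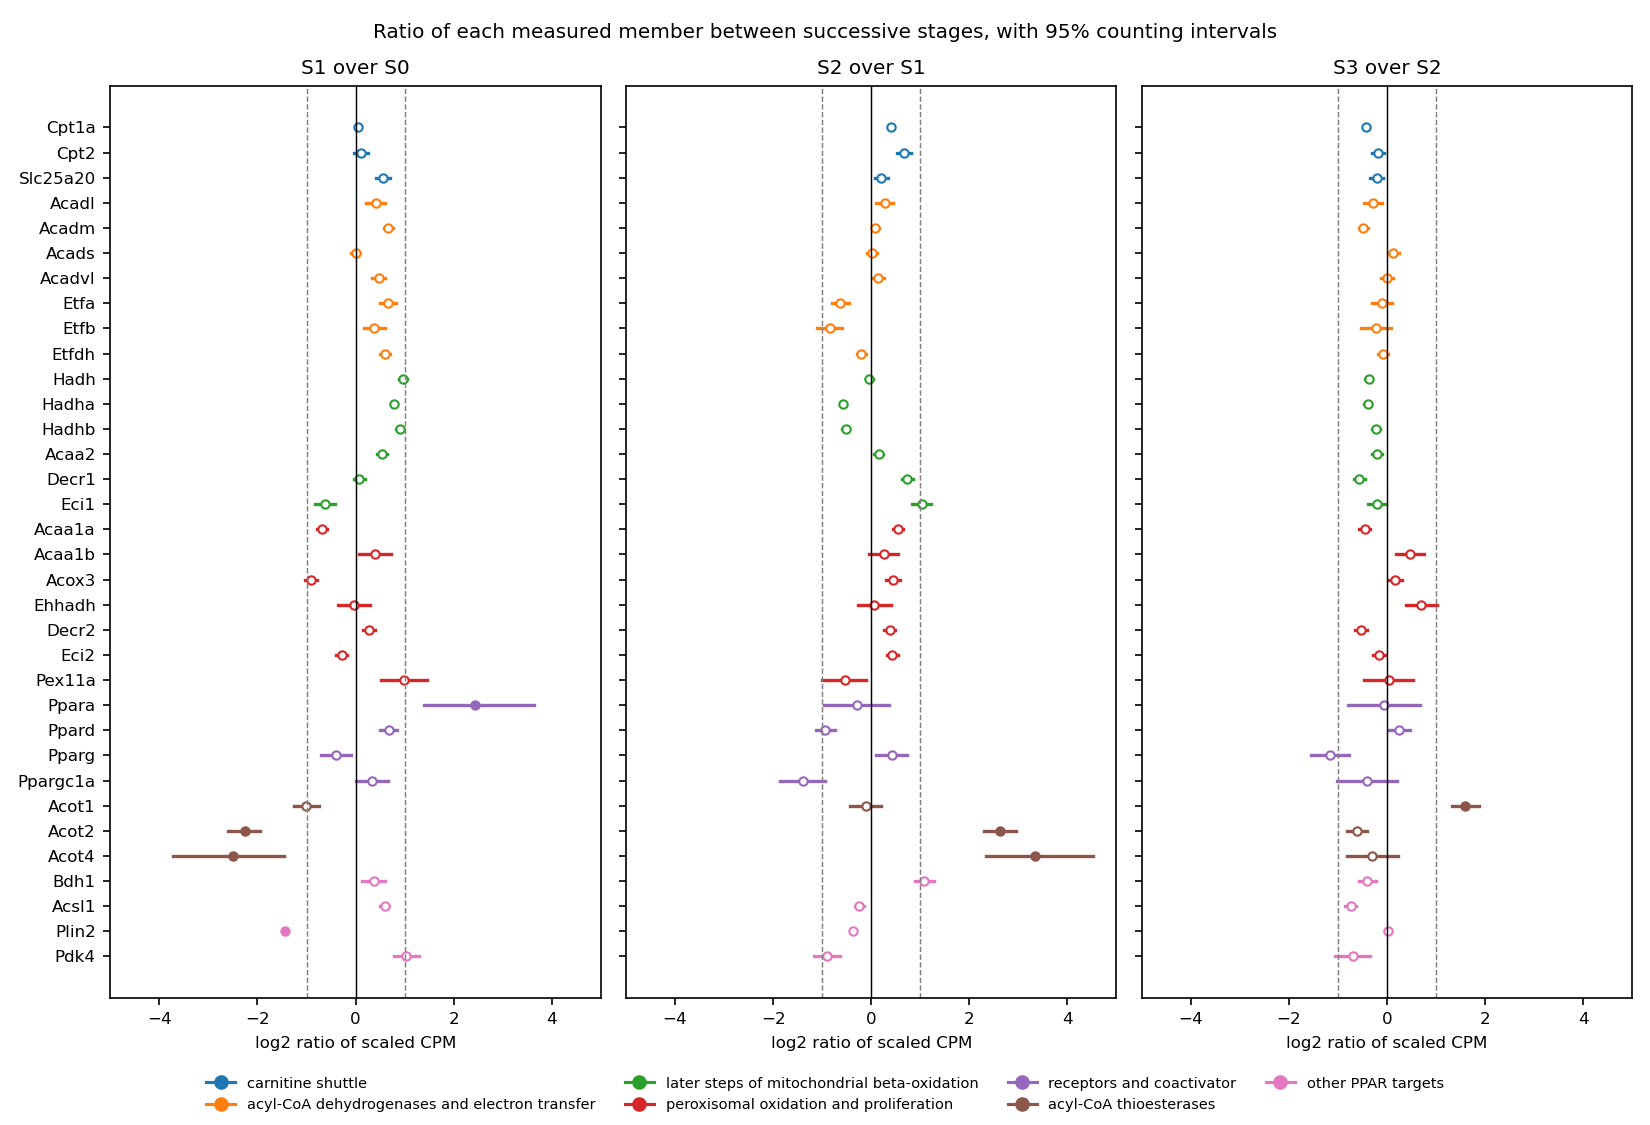
Log2 ratio of scaled CPM for the 34 measured genes, 1 panel per comparison. Bars are exact 95% counting intervals, dashed lines mark 2-fold, and filled points are genes called beyond 2-fold. Most points lie between the dashed lines in each panel.

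The carnitine shuttle brings long chains into the mitochondrion, and none of its 3 measured genes was called in any comparison. Of all genes, 4.83% (S3 against S2) to 25.6% (S1 against S0) were called, and 3 genes are too few to set apart from that. Cpt1a, the liver form of the outer-membrane acyltransferase and the rate-limiting enzyme of mitochondrial import, had 207 CPM at S0, 212 at S1, 280.3 at S2 and 209 at S3. Its level in S2 was the highest, at 1.32 times S1 (1.27 to 1.37), and S3 was 1.01 times S0 (0.972 to 1.05). Cpt1b, the muscle form, had 1, 2, 1 and 1 reads in S0 to S3. Cpt2, which returns the chain to coenzyme A inside the mitochondrion, had 25.8 CPM at S0, 27.8 at S1, 44.4 at S2 and 39.2 at S3. That put S0 and S1 on one side and S2 and S3 on the other, with a ratio of S2 to S1 of 1.59 (1.45 to 1.75). Slc25a20, the translocase that exchanges acylcarnitine for carnitine, had 24.4 CPM at S0, 36.1 at S1, 41.6 at S2 and 36.0 at S3. S0 was the lowest stage for Slc25a20. Per gene length (RPKM as deposited), Cpt1a ranked 2 among the 37 genes in S0, S2 and S3 and 4 in S1, with 16.9 RPKM in S0 and 22.7 in S2.

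The acyl-CoA dehydrogenases, which open each round of beta-oxidation, differ in chain length. Acadm, for medium chains, had 64.9 CPM at S0, 103 at S1, 109.6 at S2 and 78.5 at S3, with a ratio of S1 to S0 of 1.59 (1.5 to 1.69). Acadvl, for very long chains, had 29.8 CPM at S0, 41.3 at S1, 45.3 at S2 and 45.5 at S3. Acadl, for long chains, had 14.7 CPM at S0, 19.5 at S1, 23.5 at S2 and 19.3 at S3. All 3 had their lowest level in S0. Acads, for short chains, stood apart with 59.4 CPM at S0, 59.4 at S1, 59.8 at S2 and 65.7 at S3, and its ratio of S1 to S0 was 0.999 (0.933 to 1.07).

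The electron transfer genes, which carry electrons from these dehydrogenases to ubiquinone, had their highest level in S1. Etfa, the alpha subunit of the electron transfer flavoprotein, had 17.6 CPM at S0, 28.0 at S1, 18.1 at S2 and 16.8 at S3. Etfb, the beta subunit, had 11.4 CPM at S0, 14.8 at S1, 8.24 at S2 and 7.09 at S3. Both subunits had similar ratios of S2 to S1, 0.646 for Etfa (0.571 to 0.729) and 0.555 for Etfb (0.464 to 0.662). Etfdh, the membrane oxidoreductase that receives their electrons, had 54.4 CPM at S0, 82.5 at S1, 71.5 at S2 and 67.6 at S3. Etfb overlaps Cldnd2 and Etfdh overlaps Ppid in RefSeq, so reads of those pairs could be shared if counting ignored the strand. No gene of the 7 in this step was called at 2-fold (all genes 4.83% to 25.6% by comparison).

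No gene of the later steps of the mitochondrial spiral was called (all genes 4.83% to 25.6% by comparison), although several stood just short of 2-fold in S1. Hadha and Hadhb encode the alpha and beta subunits of the mitochondrial trifunctional protein, which handles long chains. Hadha had 137 CPM at S0, 235 at S1, 158 at S2 and 121 at S3. Hadhb had 85.4 CPM at S0, 160 at S1, 112 at S2 and 95.5 at S3. The ratio of S1 to S0 was 1.71 for Hadha (1.65 to 1.79) and 1.87 for Hadhb (1.78 to 1.97). The starts of the pair lie 272 bases apart on opposite strands, as shown above. Hadha took 61.6% of the pair's reads at S0, 59.5% at S1, 58.7% at S2 and 55.9% at S3.

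Hadh, the hydroxyacyl-CoA dehydrogenase for shorter chains, had 78.7 CPM at S0, 154 at S1, 150.1 at S2 and 116 at S3. Its ratio to S0 was 1.95 in S1 (1.86 to 2.06) and 1.91 in S2 (1.81 to 2.02), both intervals reaching across 2-fold. Without TMM scaling Hadh and Hadhb passed 2-fold in S1 against S0. Acaa2, the mitochondrial thiolase that releases acetyl-CoA, had 51.4 CPM at S0, 74.8 at S1, 83.2 at S2 and 72.6 at S3. The auxiliary enzymes for unsaturated chains had another order. Decr1, the dienoyl-CoA reductase, had 44.5 CPM at S0, 46.9 at S1, 78.3 at S2 and 53.2 at S3, with S2 the highest. Eci1, the enoyl-CoA isomerase, had 18.6 CPM at S0, 12.0 at S1, 24.5 at S2 and 21.3 at S3, with S1 the lowest. Its ratio of S2 to S1 was 2.04 (1.78 to 2.34), and that of S1 to S0 was 0.647 (0.563 to 0.744).

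Over the 13 mitochondrial beta-oxidation and electron transfer genes, 11 had a higher level in S1 than in S0, Eci1 and Acads (which turned above 0 without TMM scaling) being the exceptions, with a median log2 ratio of 0.54 (all genes -0.03). In S3 against S2, 11 of the 13 had the lower level in S3, with a median of -0.22 (all genes 0.01), Acads and Acadvl being the exceptions. Summed, they stood at 667.8 CPM at S0, 1031 at S1, 942.1 at S2 and 780.1 at S3. For comparison, 17 tricarboxylic acid cycle genes had a median of 0.06 in S1 against S0 and summed to 2300 CPM at S0, 2572 at S1, 2230 at S2 and 2159 at S3. The 31 further oxidation and ketone body genes described below had a median of 0.27 in S1 against S0, with 20 ratios above 0. Their median was -0.23 in S3 against S2, with 26 ratios below 0, so the shifts were not particular to the 13 genes. The summed macrophage markers were lower in S1 than in S0, at 3359 CPM in S1 and 14510 CPM in S0, with 12 of 15 called lower and Marco higher. Hepatocyte markers had 5 of 9 called higher and 2 lower in the same comparison, where 12.6% of all genes were called higher and 13.1% lower. The part of either marker list in the beta-oxidation levels was not tested.

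**Figure D3:**
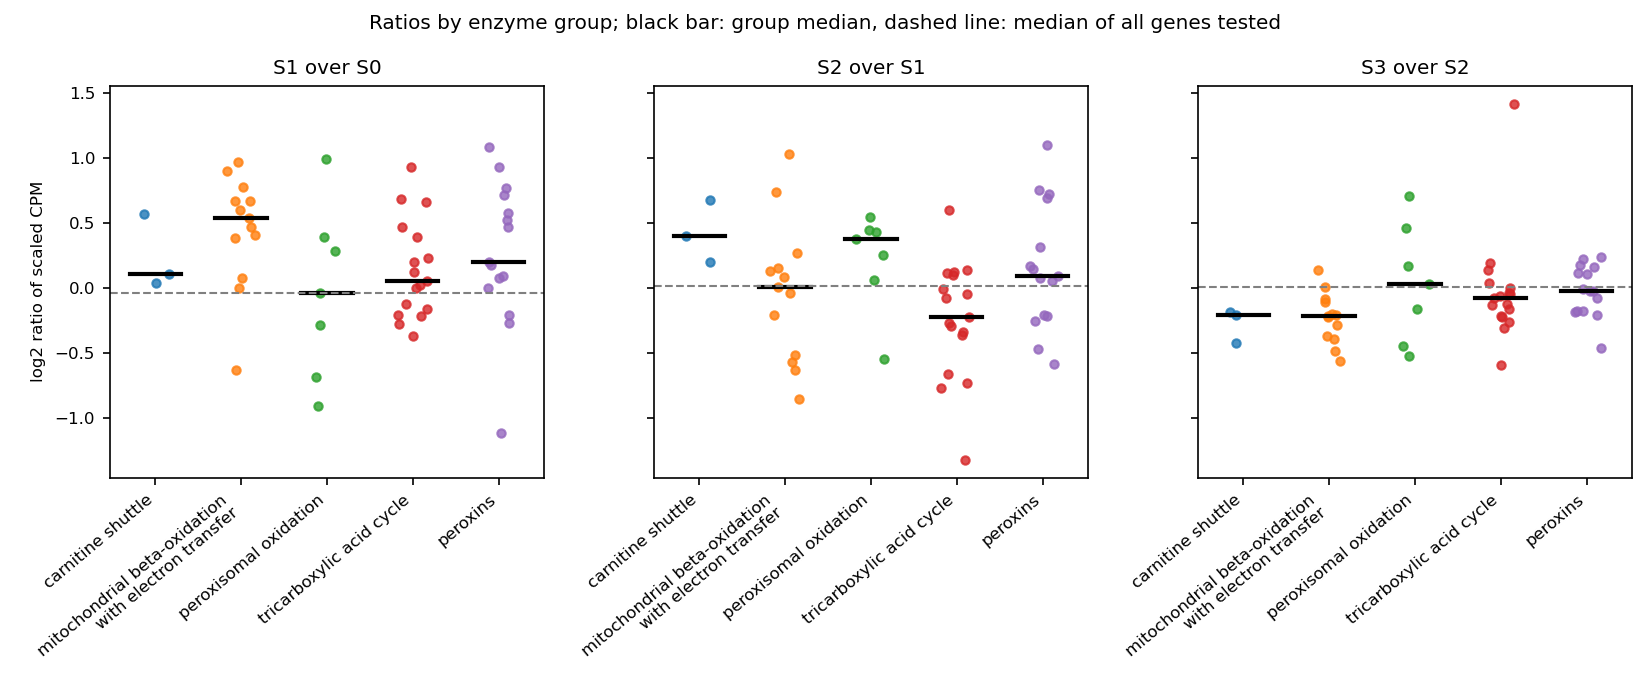
Log2 ratio of scaled CPM for single genes (points) in 5 groups, the carnitine shuttle, mitochondrial beta-oxidation with electron transfer, peroxisomal oxidation, the tricarboxylic acid cycle and the peroxins, 1 panel each for S1 over S0, S2 over S1 and S3 over S2. Black bars are group medians and the dashed line is the median of all genes tested. The mitochondrial group lies mostly above 0 in S1 against S0 (median 0.54) and mostly below 0 in S3 against S2 (median -0.22).

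Peroxisomal genes shared no direction in S1 against S0: 3 ratios lay above 0 and 4 below, with a median log2 ratio of -0.04 that turned to 0.13 without TMM scaling. None of the 7 was called in any comparison (all genes 4.83% to 25.6% by comparison). Acaa1a, a peroxisomal thiolase, had 75.2 CPM at S0, 46.8 at S1, 68.2 at S2 and 50.03 at S3. Acox3, the oxidase for branched chains, had 55.1 CPM at S0, 29.5 at S1, 40.1 at S2 and 45.2 at S3. Both were lowest in S1, with ratios of S1 to S0 of 0.622 for Acaa1a (0.580 to 0.666) and 0.534 for Acox3 (0.491 to 0.582).

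Acaa1b, the thiolase paralog that PPAR-alpha agonists induce in mouse liver, ran the other way, with 5.13 CPM at S0, 6.72 at S1, 8.01 at S2 and 11.1 at S3. Its S3 level was 2.16 times that of S0 (1.75 to 2.67), an interval that reaches below 2-fold. Acaa1b took 6.38% of the reads of the thiolase pair at S0, 12.6% at S1, 10.5% at S2 and 18.1% at S3. Reads of the pair could be split between paralogs, and the summed pair had 80.3 CPM at S0, 53.5 at S1, 76.2 at S2 and 61.1 at S3. Acaa1b also overlaps Dlec1 in RefSeq. Ehhadh, the bifunctional enzyme of the peroxisomal spiral, had 5.77 CPM at S0, 5.61 at S1, 5.87 at S2 and 9.56 at S3, with S3 alone set apart (ratio of S3 to S2 of 1.63, 1.31 to 2.04).

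Decr2, the peroxisomal dienoyl-CoA reductase, had 36.4 CPM at S0, 44.2 at S1, 57.5 at S2 and 40.04 at S3, the same S2 maximum as its mitochondrial counterpart Decr1. Eci2, a peroxisomal enoyl-CoA isomerase, had 48.3 CPM at S0, 39.7 at S1, 53.5 at S2 and 47.8 at S3, the same S1 minimum as Eci1. Pex11a, which promotes peroxisome elongation and division, had 2.17 CPM at S0, 4.31 at S1, 2.96 at S2 and 3.03 at S3, and it overlaps Wdr93 in RefSeq. Its ratio of S1 to S0 was 1.98 (1.44 to 2.76) from 125 reads in S1 and 58 reads in S0. The 15 peroxins, which build peroxisomes, included no called gene in any comparison, and their median was 0.20 in S1 against S0. Of all genes, the share called ran from 4.83% in S3 against S2 to 25.6% in S1 against S0.

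Among the receptors, Ppara, whose product binds fatty acids and drives these genes in liver, was the least abundant per gene length, with at most 0.211 RPKM. It had 9 reads at S0, 53 at S1, 33 at S2 and 34 at S3, or 0.337 CPM at S0, 1.83 at S1, 1.5 at S2 and 1.45 at S3. S0 lay below all later stages. Ppara was 5.42-fold higher in S1 than in S0 (2.65 to 12.5), 4.46-fold higher in S2 (2.09 to 10.6) and 4.31-fold higher in S3 (2.02 to 10.2). The last of these was no longer called with DESeq2 size factors or with TMM on protein-coding genes. Ppara could pass the 1 CPM limit only through the later stages, so its direction against S0 was set by that limit.

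Ppard, the widely expressed receptor, was the most abundant of the 3 per gene length at each stage. It had 17.3 CPM at S0, 27.6 at S1, 14.4 at S2 and 17.1 at S3. Its ratio of S2 to S1 was 0.522 (0.457 to 0.596), and its row also carries the name of an overlapping long non-coding gene. Pparg, the adipose and macrophage receptor, had 7.75 CPM at S0, 5.89 at S1, 7.88 at S2 and 3.54 at S3. Its ratio of S3 to S2 was 0.450 (0.342 to 0.588), so S3 stood below the other stages without passing the limit. The coactivator gene Ppargc1a, which PPAR-alpha uses in fasting liver, had 5.02 CPM at S0, 6.34 at S1, 2.41 at S2 and 1.84 at S3. S2 and S3 were both below S0 and S1, with a ratio of S2 to S1 of 0.381 (0.275 to 0.519), just short of a call. Without TMM scaling Ppargc1a was called lower in S2 against S1. Of the summed RPKM of the 3 receptors, Ppard held 58.9% at S0, 72.1% at S1, 51.9% at S2 and 71.8% at S3.

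The acyl-CoA thioesterases, which release free fatty acids from coenzyme A, were called in 3 of the 5 comparisons. Acot2, the mitochondrial enzyme, had 433 reads at S0, 98 at S1, 456 at S2 and 319 at S3, or 16.2 CPM at S0, 3.38 at S1, 20.8 at S2 and 13.6 at S3. It was 4.80-fold lower in S1 than in S0 (3.85 to 6.04) and 6.15-fold higher in S2 than in S1 (4.94 to 7.73). Acot4, a peroxisomal enzyme in mouse, had 47 reads at S0, 9 at S1, 69 at S2 and 60 at S3, or 1.76 CPM at S0, 0.310 at S1, 3.14 at S2 and 2.56 at S3. It was 5.68-fold lower in S1 than in S0 (2.75 to 13.2) and 10.1-fold higher in S2 than in S1 (5.04 to 23.1). Both differences rest on the same S1 library, which is the low one for each gene. Acot4 could pass the 1 CPM limit only through the other stages, so its direction against S1 was set by that limit. In S1 against S0, 12 of 15 macrophage markers were called lower, and in S2 against S1, 11 of 15 were called lower and Cd14 higher. Hepatocyte markers had 5 of 9 called higher and 2 lower in S1 against S0. From S1 to S2, 4 of the 9 were called higher and 1 lower, with a sum of 12180 CPM in S2 and 4113 CPM in S1. Of all genes, 12.6% were higher and 13.1% lower in S1 against S0, and 6.71% and 10.1% in S2 against S1.

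Acot1, the cytosolic enzyme next to Acot2, followed another course, with 13.5 CPM at S0, 6.75 at S1, 6.24 at S2 and 18.9 at S3. S1 and S2 were both low, and S3 was the highest. Acot1 was 3.03-fold higher in S3 than in S2 (2.50 to 3.70), and its S1 to S0 ratio of 0.499 (0.418 to 0.596) was not called. Acot3 had 5, 1, 2 and 0 reads in S0 to S3, and 0 reads in S3 allow up to 0.128 CPM. Of the reads of the 4 thioesterase genes, Acot1 held 42.7% at S0, 64.5% at S1, 20.6% at S2 and 53.9% at S3. Those shares are of reads and are not corrected for gene length. Acot2 held 51.2% at S0, 32.2% at S1, 68.7% at S2 and 38.8% at S3.

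Counting could split reads between these close paralogs, so the summed group was set beside them. The sum was 31.7 CPM at S0, 10.5 at S1, 30.2 at S2 and 35.1 at S3. It was 3.03-fold lower in S1 than in S0 (2.65 to 3.46) and 2.89-fold higher in S2 than in S1 (2.52 to 3.32), and S3 to S2 gave 1.16 (1.05 to 1.29). The low S1 level thus appeared in the sum, while the S3 difference of Acot1 from S2 did not. In S3 against S2, 6 of 11 fibroblast and stellate cell markers were called higher and 5 of 9 hepatocyte markers lower (all genes 3.69% higher and 1.14% lower). The part of these lists and of the macrophage markers in the thioesterase values was not tested. Of the upstream sequences shown above, that of Acot4 ends in a match to the PPAR element with 2 mismatches, while those of Acot1 and Acot2 held none at that limit.

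**Figure D4:**
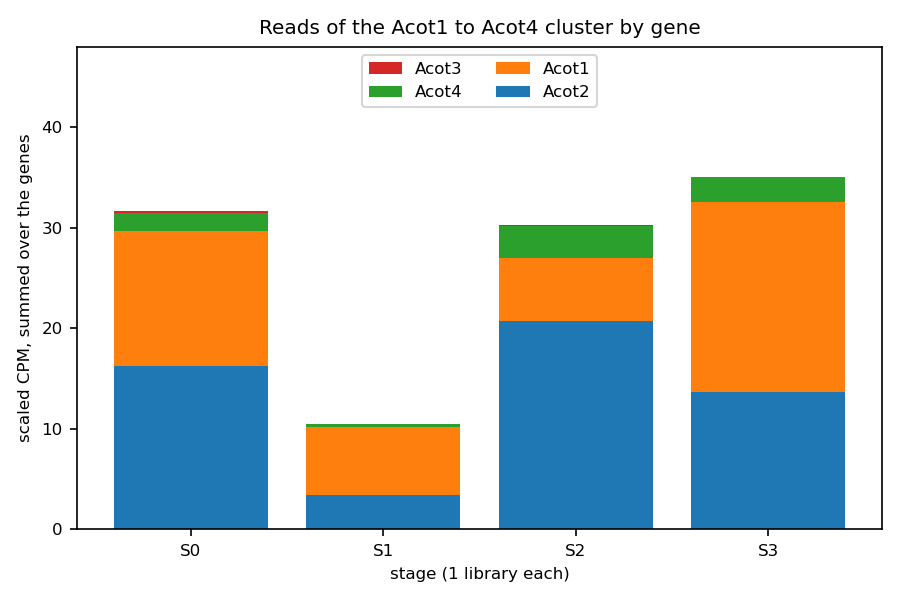
Scaled CPM of the neighbouring acyl-CoA thioesterase genes on chromosome 12 at stages S0 to S3 (1 library each), stacked so that the bar height is the sum over the genes and each colour is 1 gene. The summed level is lowest in S1 (10.5 CPM), and Acot1 holds 20.6% of the reads in S2 and 53.9% in S3.

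Plin2, which coats lipid droplets and is induced by fatty acids in many cell types, macrophages among them, was the most abundant gene of the set at every stage, with 142 RPKM at S0, 59.0 at S1, 40.4 at S2 and 41.9 at S3. In scaled CPM it had 765 at S0, 282 at S1, 219 at S2 and 223 at S3. S0 lay far above the later stages. Plin2 was 2.71-fold lower in S1 than in S0 (2.64 to 2.78), 3.5-fold lower in S2 (3.39 to 3.61) and 3.43-fold lower in S3 (3.33 to 3.54). Its ratio of S3 to S2 was 1.02 (0.980 to 1.06). Plin2 took 37.3% of the reads of all 37 genes at S0, 14.6% at S1, 11.4% at S2 and 13.8% at S3. With Plin2 left out, the set held 0.125% of all reads at S0, 0.180% at S1, 0.163% at S2 and 0.139% at S3.

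The sum of the macrophage and Kupffer cell markers ran in the same order as Plin2 from S0 to S2. Single markers did not all do so. Marco had 73.5 CPM in S0 and 169.4 in S1, and Cd14 and Msr1 were higher in S2 than in S1. All 15 markers were called lower in S2 than in S0 and all 15 lower in S3 than in S0, and their sum was 748.5 CPM in S2 and 14510 in S0. None of the 15 genes was at 0 reads, apart from a second, low entry for Itgam. The adipocyte markers Adipoq and Lep were at 0 reads at all stages, and Plin1, the adipocyte droplet coat, had 1 read in S2 and 0 reads elsewhere. The fibroblast and stellate cell sum was also highest in S0, where Acta2 held most of it. Counted by gene, that list had 4 of 11 markers called lower and 1 higher in S1 against S0 (all genes 13.1% and 12.6%). In S2 against S0 it had 4 lower and 3 higher (all genes 11.5% and 9.05%). In S3 against S0 it had 3 lower and 6 higher (all genes 10.5% and 9.2%). Dcn, a matrix proteoglycan gene of fibroblasts, had 523 CPM in S3 and 29.9 CPM in S0, the opposite direction to Plin2. The part of either list in the Plin2 level was not tested.

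**Figure D5:**
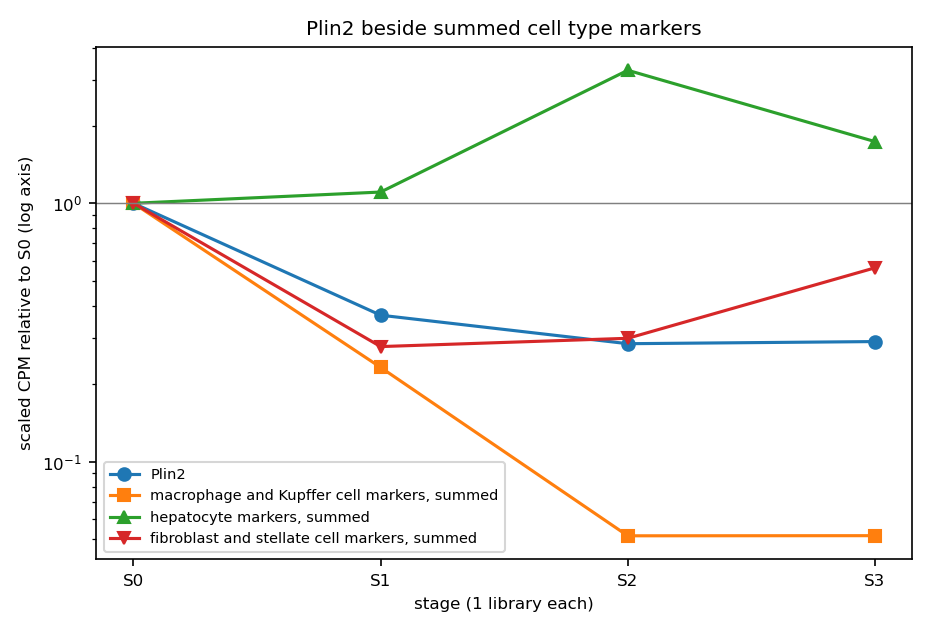
Plin2 beside the summed marker lists of macrophage and Kupffer cells, hepatocytes, and fibroblast and stellate cells at stages S0 to S3, relative to S0 on a log axis. Plin2 and the macrophage sum are highest in S0, while the hepatocyte sum is highest in S2 (12180 CPM, against 3721 CPM in S0).

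Bdh1, which interconverts the ketone bodies acetoacetate and beta-hydroxybutyrate, had 9.81 CPM at S0, 12.7 at S1, 26.9 at S2 and 20.4 at S3. S2 and S3 both lay above S0 and S1, and Bdh1 was 2.74-fold higher in S2 than in S0 (2.37 to 3.19). Its ratio of S3 to S0 was 2.08 (1.79 to 2.43) and was not called. In S2 against S0, 7 of 9 measured hepatocyte markers were called higher (all genes 9.05%), and their part in the Bdh1 level was not tested.

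Acsl1, the synthetase that activates long-chain fatty acids, had 56.3 CPM at S0, 85.1 at S1, 72.0 at S2 and 43.1 at S3, with S3 the lowest. Its ratio of S3 to S2 was 0.599 (0.553 to 0.648). Pdk4, the kinase that shuts off pyruvate dehydrogenase when fat is burned, had 6.93 CPM at S0, 14.2 at S1, 7.60 at S2 and 4.70 at S3. S1 lay above all others, with a ratio of S1 to S0 of 2.04 (1.71 to 2.44). Fabp1, the liver fatty acid binding protein and a classic PPAR-alpha target that is abundant in liver, had 4 reads at S0, 1 at S1, 0 at S2 and 2 at S3, or at most 0.150 CPM. Its 0 reads in S2 allow up to 0.137 CPM.

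The other genes of the pathway came from lists chosen by role. Of 31 further oxidation and ketone body genes, all measured, 1 was higher and 2 were lower in S1 against S0, where 12.6% of all genes were higher and 13.1% lower. Acacb, which makes the malonyl-CoA that inhibits carnitine import, was 4.33-fold higher (3.16 to 6.04), and Ech1, a dienoyl-CoA isomerase, was 2.32-fold lower (2.13 to 2.54). In S2 against S1, 2 were higher and 2 lower (all genes 6.71% and 10.1%). Acox2, the oxidase of bile acid intermediates and branched chains, had 3.86 CPM at S0, 3.03 at S1, 76.6 at S2 and 59.6 at S3, and was 25.3-fold higher in S2 than in S1 (20.4 to 31.7). In that comparison 4 of 9 hepatocyte markers were called higher and 1 lower, and their part in the Acox2 level was not tested. Bdh2 was 4.33-fold higher (2.65 to 7.33) and reached 1 CPM only in S2, so its direction against S2 was set by that limit. Abcd2, a peroxisomal transporter of very-long-chain acyl-CoA, was 3.69-fold lower (2.82 to 4.89).

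In S3 against S2, 1 gene of the list was higher and 1 lower (all genes 3.69% and 1.14%), the lower one being Bdh2, at 3.49-fold (2.14 to 5.91). From S0, 6 genes of the list were higher and 3 lower in S2 (all genes 9.05% and 11.5%), and 4 were higher and 2 lower in S3 (all genes 9.2% and 10.5%). Bdh2 was 7.30-fold higher in S2 (3.93 to 14.8). Because Bdh2 reached 1 CPM only in S2, that limit set its direction in both comparisons. Acox2 was 19.9-fold higher in S2 (16.3 to 24.5) and 15.4-fold higher in S3 (12.6 to 19.1). Acox2 was thus well above S0 in both later stages. Abcd2 was 6.78-fold lower in S2 (5.23 to 8.91) and 8.87-fold lower in S3 (6.68 to 12.0). Acacb was 5.13-fold higher in S3 (3.74 to 7.17). Acot12, with 23 reads in S2 and 2 in S0, had a ratio of 14.0 (3.46 to 122). It reached 1 CPM only in S2, which set its direction as well.

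Of 15 measured PPAR partners and coregulators, 6 were called lower and 0 higher in S1 than in S0, and all 15 ratios lay below 0, with a median log2 ratio of -0.73 (all genes -0.03). Of all genes, 13.1% were called lower and 12.6% higher. Macrophage markers were lower in the same comparison (12 of 15), and their part in these levels was not tested. Rxra, the partner with which PPARs bind DNA, had 42.8 CPM in S1 and 159 CPM in S0, a 3.72-fold lower level (3.49 to 3.96). The coactivator genes Pprc1 and Crebbp were 3.34-fold (2.87 to 3.89) and 2.60-fold lower (2.44 to 2.77), and the deacetylase gene Sirt1 was 2.72-fold lower (2.38 to 3.12). In S2 against S1, Crebbp was 2.43-fold higher (2.27 to 2.60) and 0 were lower (all genes 6.71% higher and 10.1% lower). Against S0, 2 genes were lower in S2 (all genes 11.5%) and 2 in S3 (all genes 10.5%). Ppargc1b was 6.26-fold lower in S2 (3.81 to 10.9) and 12.0-fold lower in S3 (6.34 to 25.6). It was below 1 CPM in S2 and S3, so that limit set its direction there. Ncoa3 was 2.69-fold lower in S2 (2.53 to 2.87) and 3.3-fold lower in S3 (3.09 to 3.53). No gene of the list was called in S3 against S2 (all genes 4.83%).

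Fatty acid uptake, activation and binding genes differed in both directions. Of 21 measured, 3 were higher and 4 lower in S1 against S0, where 12.6% of all genes were higher and 13.1% lower. Acss2, which makes acetyl-CoA from acetate, was 16.4-fold higher (13.6 to 19.9), Acsl6 was 8.65-fold higher (4.50 to 18.6), Fabp7 was 8.66-fold lower (5.91 to 13.1) and Acsl5, another acyl-CoA synthetase, 3.59-fold lower (3.40 to 3.80). In S2 against S1, 2 were higher and 4 lower (all genes 6.71% and 10.1%), with Acsl5 3.32-fold higher (3.14 to 3.52) and Fabp4, a binding protein of fat cells and macrophages, 12.7-fold lower (5.23 to 40.1). Acsl6 and Fabp4 reached 1 CPM only in S1, which fixed their direction against it. No gene was called in S3 against S2 (all genes 4.83%). Against S0, 3 were higher and 5 lower in S2 (all genes 9.05% and 11.5%), and 4 were higher and 6 lower in S3 (all genes 9.2% and 10.5%). Acss2 stayed higher, at 6.53-fold in S2 (5.36 to 8.01) and 9.09-fold in S3 (7.51 to 11.1). Acss1, its mitochondrial relative, was 7.51-fold lower in S2 (4.87 to 12.1) and 36.8-fold lower in S3 (15.5 to 115). Fabp7 was 13.1-fold lower in S2 (7.78 to 23.8) and 17.5-fold lower in S3 (9.81 to 34.3). Fabp7 was below 1 CPM in S2 and S3, and Acss1 in S3, so that limit set their direction there. Slc27a1, a fatty acid transport protein gene, had 16.0 CPM in S2 and 76.3 CPM in S0, a 4.76-fold lower level (4.25 to 5.34). Beside these values, 12 of 15 macrophage markers were called lower in S1 against S0, 11 in S2 against S1, and all 15 in S2 and in S3 against S0. The part of that list in the Fabp4, Fabp7 and Slc27a1 levels was not tested.

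Of 25 further PPAR targets and droplet genes, 18 were measured. In S1 against S0, 3 were higher and 3 lower (all genes 12.6% and 13.1%). Cidea, a droplet fusion gene, had 72 reads in S1 and 0 reads in S0. The lower bound of its counting interval was 17.5-fold higher. It reached 1 CPM only in S1, which fixed its direction. Slc25a42, a mitochondrial coenzyme A carrier, was 4.77-fold higher (3.80 to 6.05). The fatty acid omega-hydroxylase genes Cyp4a12a and Cyp4a12b were both lower in S1. Both reached 1 CPM only in S0 and S3, so that limit set their direction in S1 against S0. Cyp4a12a had 43 reads at S0, 2 at S1, 2 at S2 and 152 at S3, with a ratio of S1 to S0 of 0.0428 (0.00502 to 0.164). Cyp4a12b had 132 reads at S0, 7 at S1, 2 at S2 and 38 at S3, and was 20.5-fold lower in S1 than in S0 (9.67 to 52.0). In S2 against S1, 1 was higher and 4 lower (all genes 6.71% and 10.1%). Ucp2, an uncoupling protein common in macrophages, was 3.87-fold lower (3.43 to 4.38). Txnip was 3.48-fold lower (3.31 to 3.67), and Fads2, the delta-6 desaturase, 4.17-fold higher (3.92 to 4.43).

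In S3 against S2, 5 of these 18 were higher and 0 lower, where 3.69% of all genes were higher and 1.14% lower. In the same comparison 6 of 11 fibroblast and stellate cell markers were called higher and 5 of 9 hepatocyte markers lower, and their part in these levels was not tested. Fads2 had 453 CPM in S3 and 192 CPM in S2, a 2.35-fold higher level (2.27 to 2.44). Vnn1, a pantetheinase induced by PPAR-alpha, was 2.47-fold higher (2.30 to 2.66). The ratio of S3 to S2 was 71.3 for Cyp4a12a (19.4 to 594) and 17.8 for its close paralog Cyp4a12b (4.6 to 152), and reads of the pair could be split. Neither gene reached 1 CPM in S1 or S2, so that limit set their direction in S3 against S2. Set against S0, the pair parted in S3. Cyp4a12a was 4.03-fold higher (2.86 to 5.79), while Cyp4a12b was 3.05-fold lower (2.11 to 4.49), with 1.62 CPM in S3 and 4.94 CPM in S0. Against S0, 5 of the list were higher and 6 lower in S2 (all genes 9.05% and 11.5%), and 5 were higher and 5 lower in S3 (all genes 9.2% and 10.5%). Fads2 was 7.45-fold higher in S2 (6.87 to 8.08) and 17.5-fold higher in S3 (16.2 to 19.0). Ucp2 was 6.84-fold lower in S2 (6.09 to 7.70), and Txnip was 5.50-fold lower in S3 (5.18 to 5.84). Angptl4, a PPAR-induced inhibitor of lipoprotein lipase, was 4.02-fold lower in S3 than in S0 (3.56 to 4.54), and Lpin1 was 3.37-fold higher (3.14 to 3.63).

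Of the 10 pyruvate dehydrogenase genes, Pdk2, a kinase related to Pdk4, was 2.49-fold higher in S1 than in S0 (2.08 to 3.00). Pdp1, a phosphatase that opposes the kinases, was 2.83-fold lower in S2 than in S1 (2.55 to 3.16), and no other call was made on that list. Idh2, the mitochondrial isocitrate dehydrogenase that supplies NADPH, was the single called gene among the 17 of the tricarboxylic acid cycle. It had 107 CPM at S0, 98.7 at S1, 39.6 at S2 and 106 at S3, so S2 alone was low. Idh2 was 2.71-fold lower in S2 than in S0 (2.51 to 2.93) and 2.66-fold higher in S3 than in S2 (2.47 to 2.88). Of all genes, 25.6% were called in S1 against S0 and 16.8% in S2 against S1. The shares were 4.83% in S3 against S2, 19.7% in S3 against S0 and 20.6% in S2 against S0.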

How the data were processed

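Total RNA was isolated with Trizol, made into libraries with a stranded total RNA kit from Takara for Illumina sequencing, per the labels' protocols. The build was mm9 and bcl2fastq was used, per the submitters' processing notes. Not given in the sources used here are the aligner, the counter, the annotation and whether counting used strand. The authors deposited whole-number read counts per gene and RPKM values per gene, per the file headers. The length behind RPKM is not stated. RPKM served to set genes side by side within a library and as an alternative scale.

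Counts were scaled to CPM with edgeR 4.0.16 TMM factors in R 4.3.3 (0.968 at S0, 1.089 at S1, 0.957 at S2 and 0.991 at S3), and genes at 1 CPM or more in at least 1 library were kept. Log2 ratios carry exact 95% Clopper-Pearson intervals from scipy 1.17.1 in Python 3.11.15. Reads without molecular identifiers are not independent molecules, so intervals and the floor of 3 reads cover counting error only. The procedure was tested on simulated counts with Poisson error only. The intervals assume that error, so the simulation cannot show differences between cultures. Alternatives were other scalings (DESeq2 1.42.0 size factors among them), other filters, the RPKM table, a 1.5-fold limit and paralog sums. Between stages, RPKM ratios lie close to count ratios without TMM, so these are not separate checks.

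The genes and lists were chosen with earlier results of these data known. Every one of the 37 genes is named. Of each other list, at most 4 called genes per comparison are named, those whose interval lies farthest from no change, and some genes that this rule names are not reported here. Promoters come from RefSeq, and no coordinate of the count table's build is used.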

Additional observations from a re-analysis of the deposited data

How the results depend on the processing

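No paired analysis was possible because each stage is a single library with replicate number 1, and no test was run. For the same reason no library could be left out of a comparison. None of the ratios or counts of these genes changed direction as a call under any alternative run, though ratios near 1 changed sign with the scaling, 5 of them (Acadm, Acads, Acadvl, Acaa2 and Ehhadh) in S2 against S1 without TMM. That scaling moved the median log2 ratio of all genes by 0.17 in S1 against S0 and by -0.19 in S2 against S1. In S2 against S1 it gave 711 higher and 1911 lower genes, in place of 1021 and 1542, and in S1 against S0 2321 higher and 1631 lower, in place of 1915 and 1989. Of 170 single-gene ratios, 168 stayed within their counting interval with DESeq2 size factors and 130 without TMM.

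The number of genes called moved as follows. A filter of 5 CPM, which leaves 31 genes and drops Ppara and Acot4, gave 2 in S1 against S0, 1 in S2 against S1 and 1 in S3 against S0. Deposited RPKM ratios beyond 2-fold, taken without an interval, gave 8 in S1 against S0, 6 in S2 against S1, 2 in S3 against S2, 6 in S3 against S0 and 5 in S2 against S0. The 1.5-fold limit gave 11, 9, 3, 6 and 11 in that order. DESeq2 size factors and TMM on protein-coding genes each gave 1 in S3 against S0, Plin2, where TMM on all genes gave 2. The other counts lay within 1.5 times those reported. Depth limits Ppara, Acot4, Pex11a and the 3 genes below 1 CPM, whose intervals are wide or whose ratios were not given.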
